A study of Homo sapiens with 6 samples.

Results

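The genes of the ERBB receptor family and of its ligands were followed in A375 melanoma cells with and without an activating NRAS mutation. The rule named 10 genes, the receptors EGFR, ERBB2, ERBB3 and ERBB4 and the ligands EGF, AREG, EREG, HBEGF, TGFA and NRG1. Of these, 6 had a row among the 770 genes read, namely the receptors EGFR, ERBB2 and ERBB3 and the ligands AREG, EGF and EREG. The other 4 were not analysed here. The assay was the NanoString nCounter PanCancer Progression panel, which counts fluorescent barcodes hybridized to RNA without amplification. The first group was 3 samples of untreated A375 cells with BRAF V600E and wild-type NRAS. The second was 3 samples of an isogenic A375 line with BRAF V600E and NRAS Q61K, also untreated. Both lines thus carry the BRAF mutation, and the catalogue names of both carry a luciferase tag. All cells grew in medium with 10% serum and were used within 5 population doublings of thawing. The labels do not say whether the mutant line is a single clone or whether the samples of a line are separate cultures. Any other difference between the lines cannot be told apart from the NRAS allele, and the p-values measure the spread between these samples, which may be technical.

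ERBB receptors are tyrosine kinases that pair up when a ligand binds and then feed the RAS-ERK and PI3K-AKT routes. Amphiregulin (AREG), epiregulin (EREG) and epidermal growth factor (EGF) bind EGFR, and epiregulin also binds ERBB4. ERBB2 has no known ligand of its own and serves as a partner, while ERBB3 binds neuregulins, has little kinase activity and recruits PI3-kinase. The ligands are made as membrane precursors and are released by ADAM proteases. In melanoma, ERBB3 is known as a receptor of the melanocytic and neural crest lineage, and high EGFR is known from dedifferentiated cells and from cells that resist BRAF inhibitors.

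The ligand genes AREG and EREG lie next to each other on chromosome 4 (GRCh38.p14), EREG at chr4:74365145-74388749 and AREG at chr4:74445136-74455005. The start of AREG lies 56387 bases after the end of EREG. No other gene is listed between them in the RefSeq gene table. EGF lies at chr4:109912883-110013766, EGFR at chr7:55019017-55211628, ERBB2 at chr17:39688094-39728658 and ERBB3 at chr12:56080108-56103505. The 250 bases before the start of AREG and EREG are shown because AREG was well above the detection limit in wild-type cells while its neighbour was at the table's minimum. They are RefSeq sequence on the plus strand, chr4:74444886-74445135 for AREG and chr4:74364895-74365144 for EREG. Capitals mark the motifs found, the cyclic AMP response element TGACGTCA and the TATA box TATAAA.
AREG: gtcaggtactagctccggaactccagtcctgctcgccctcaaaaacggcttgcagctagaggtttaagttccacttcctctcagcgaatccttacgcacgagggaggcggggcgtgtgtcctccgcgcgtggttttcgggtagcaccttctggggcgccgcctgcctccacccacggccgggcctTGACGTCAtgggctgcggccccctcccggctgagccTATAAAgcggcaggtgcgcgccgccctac
EREG: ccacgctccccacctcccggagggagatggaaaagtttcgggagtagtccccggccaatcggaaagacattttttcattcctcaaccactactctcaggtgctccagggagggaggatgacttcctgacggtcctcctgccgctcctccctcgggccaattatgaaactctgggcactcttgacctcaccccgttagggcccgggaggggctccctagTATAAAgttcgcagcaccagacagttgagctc
The AREG window holds TGACGTCA, beginning 65 bases before the start, and TATAAA, beginning 29 bases before it. The EREG window holds TATAAA, beginning 32 bases before the start, and no TGACGTCA. The AP-1 motif TGAGTCA, searched on both strands, is in neither window. Among all 35116 promoter windows of this length, 1.65% hold TGACGTCA, 10.7% hold TATAAA on either strand and 4.20% hold TGAGTCA on either strand. A match is a description of the letters and was not tested against expression.

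The deposited values are normalized counts, in which the geometric mean of the 30 housekeeping genes lay between 728 and 733 in every sample. A value of 129.7, the mean of the negative control probes plus 2 SD, served as the detection floor. Before scaling, the genes summed to between 1224147 and 1264655 counts in samples of the wild-type line, and between 1158504 and 1189616 counts in the others. Genes above the floor had a median coefficient of variation of 3.48% in the wild-type line and of 3.64% in the mutant line. On the log2 scale, the difference of the median gene was 0.32 (mutant minus wild type) as deposited, and between -0.13 and 0.0047 under the other 4 scalings tried, so that differences are also given relative to that median. The limma fit across the 454 endogenous genes above the floor called 83.0% of them at an adjusted p under 0.05, 62.1% higher and 20.9% lower in the mutant line. For 84.1% of the same genes, all samples of a line lay on one side of all samples of the other. That the 4 members above the floor all passed, 2 higher and 2 lower, is therefore near the background. Under the other scalings, called genes made up 73.8% (the authors' sample factors removed), 65.4% (positive control probes), 78.4% (equal medians, with 33.0% higher and 45.4% lower) and 78.9% (quantile normalization), and EGFR, ERBB3 and AREG were called under each. Levels of different genes were not set against each other, since each gene is read by its own probe.

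Transcripts of the receptors moved in different directions. In bulk RNA, fewer cells that express a gene and less RNA per cell cannot be told apart. ERBB3, the neuregulin receptor, had 140.04, 137.96 and 146.44 normalized counts in the wild-type samples and 1011.32, 960.28 and 933.38 in the mutant samples. The mutant samples were all far above the wild-type samples, which lay just over the floor. The means were 141 ± 4.42 and 968 ± 39.6 (SD, n = 3 each), and the difference was 2.77 on the log2(value + 1) scale with a standard error of 0.043, or 6.80-fold (95% interval 6.32 to 7.31, adjusted p = 4.38e-08, limma). Relative to the median gene it was 2.45. With genes ordered by the change of their means, and means below the floor set to it, ERBB3 had rank 8 of 454 from the highest.

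The wild-type level of ERBB3 was close to the assay's background. Before scaling it was 152.8 to 163.0 counts, while the highest negative control probe read 111.8 to 143.8 counts over the 6 samples and the next one 75.5 to 130.8. The other 6 negative probes stayed at or below 24.8 counts. Subtracting the mean of the negative probes once more, an alternative added after seeing the data, raised the ERBB3 difference to 3.04.

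EGFR, the receptor of AREG, EREG and EGF, was lower in the mutant line by a smaller amount. It had 768.4, 777.95 and 754.68 normalized counts in the wild-type samples and 623.44, 617.18 and 610.87 in the mutant samples. Its samples varied little, with coefficients of variation of 1.53% and 1.02%, and the lines did not overlap. The means were 767 ± 11.7 and 617 ± 6.29, a difference of -0.31 (SE 0.028) on the log2 scale, or 1.24-fold lower (95% interval 1.18 to 1.30, adjusted p = 6.89e-05, limma). The size of this fall depended on the scaling. It was -0.63 relative to the median gene and lay between -0.77 and -0.63 under the 4 other scalings, with adjusted p of at most 2.38e-06. Before scaling, EGFR had between 840.0 and 861.8 counts without the NRAS mutation and between 536.8 and 555.8 with it.

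ERBB2, the receptor without a known ligand, was near the floor in both lines. It had 162.48, 137.06 and 166.21 normalized counts in the wild-type samples and 192.59, 207.45 and 185.33 in the mutant samples, which did not overlap with them. The difference was 0.33 (SE 0.085), or 1.26-fold higher (95% interval 1.09 to 1.45, adjusted p = 0.0109, limma), and relative to the median gene it was 0.011. The call held on the deposited scale and ended under each of the 4 other scalings, where the difference lay between -0.16 and 0.017 (adjusted p of 0.207 to 0.97). Before scaling, the lines overlapped, with between 151.8 and 185.0 counts without the NRAS mutation and between 165.5 and 186.8 with it.

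**Figure D1:**
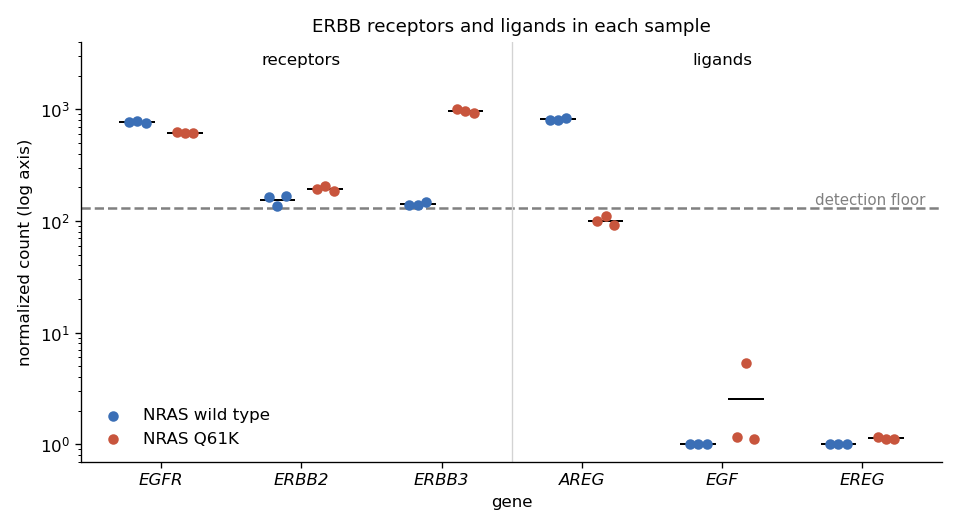
Normalized counts on a log axis of the 3 receptor and 3 ligand genes in each sample, with a point per sample, a black line at the mean of each line's 3 samples and a dashed line at the floor of 129.7. ERBB3 is high in the mutant samples alone, AREG in the wild-type samples alone, and EGF and EREG stay at or near the table's minimum.

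AREG, which encodes amphiregulin, was the ligand member that could be tested, and it was far lower in the mutant line. It had 803.41, 806.84 and 831.04 normalized counts in the wild-type samples and 99.68, 109.74 and 92.39 in the mutant samples. All mutant samples were below the floor, and the gene passed the filter through its wild-type samples. The means were 814 ± 15.1 and 101 ± 8.71, and AREG was lower in the mutant line (adjusted p = 1.19e-07, limma). The wild-type mean was 6.28 times the floor. As a bound on the fold this is approximate, since the control probes behind the floor were not scaled. Mutant gene values carry factors of 1.11 to 1.16, so on their scale the floor is higher and the bound smaller. The fitted difference was -3.01 (SE 0.065) as deposited and between -3.66 and -3.32 under the other scalings. It is no bound, since it uses the mutant level under the floor. With means below the floor set to it, AREG had rank 5 of 454 from the lowest.

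The other ligands gave no usable signal. EREG, encoding epiregulin, was at the table's minimum in all 6 samples, as were 75 of the 740 endogenous genes. Its values, 1 in each wild-type sample and between 1.11 and 1.16 in the others, are that minimum after scaling, so no difference between the lines can be read from them. EGF was at the minimum in all wild-type samples and in 2 mutant samples, and had 5.37 normalized counts in the mutant sample of replicate 2. Neither gene was tested. A level under the floor was not detectable with this assay, which does not show that the transcript is absent.

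**Figure D2:**
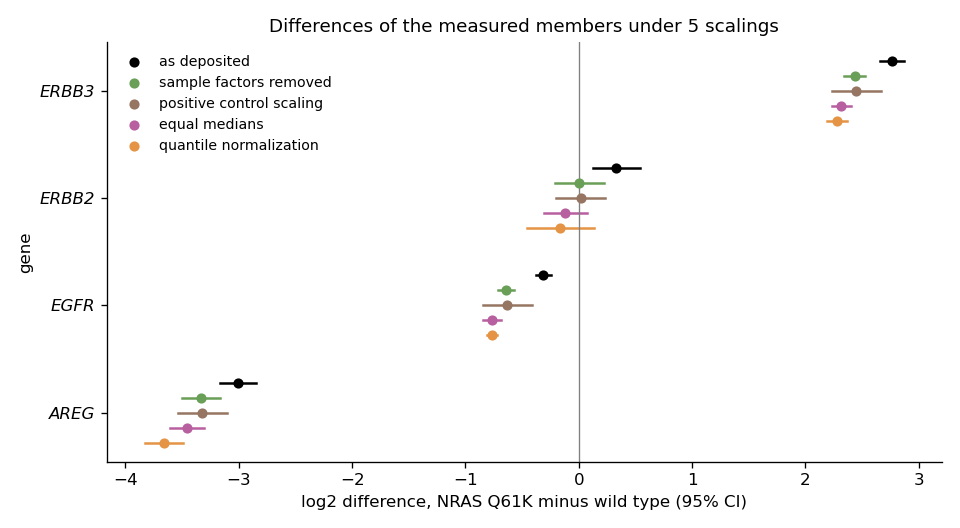
Log2 difference between the lines, mutant minus wild type, with its 95% confidence interval from limma, for the 4 members above the floor under the deposited scaling and 4 others. AREG and EGFR stay below 0 and ERBB3 above 0 under all 5, while ERBB2 moves from 0.33 as deposited to between -0.16 and 0.017.

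The ratio of a pair of genes within a sample does not depend on a factor that scales the whole sample, and shows whether both changed to the same extent. Quantile normalization, which uses no such factor, can move it. The 6 pairs of members above the floor were compared by an exact 2-sided permutation test, which cannot go below p = 0.1 with 3 samples against 3. All 6 gave this smallest value (exact permutation p = 0.1, also after adjustment over the pairs), so none can pass a threshold of 0.05. The EGFR to ERBB3 ratio fell by 3.08 on the log2 scale (SE 0.046) from wild-type to mutant cells. The EGFR to ERBB2 ratio fell by 0.64 (SE 0.11). Ratios with AREG are given with its mutant values set to the floor. These are approximate bounds, since the floor was not scaled as the gene values were and would be higher on the mutant scale. The change so obtained was -2.34 for the AREG to EGFR ratio, a ligand and its receptor, and -5.42 for the AREG to ERBB3 ratio. With the measured mutant values, which lie under the floor, the same differences were -2.69 and -5.77, and after quantile normalization they were -2.90 and -5.94. For each of the 6 ratios, wild-type and mutant samples formed separate ranges. Pairs with EREG were not computed because it was at the minimum.

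**Figure D3:**
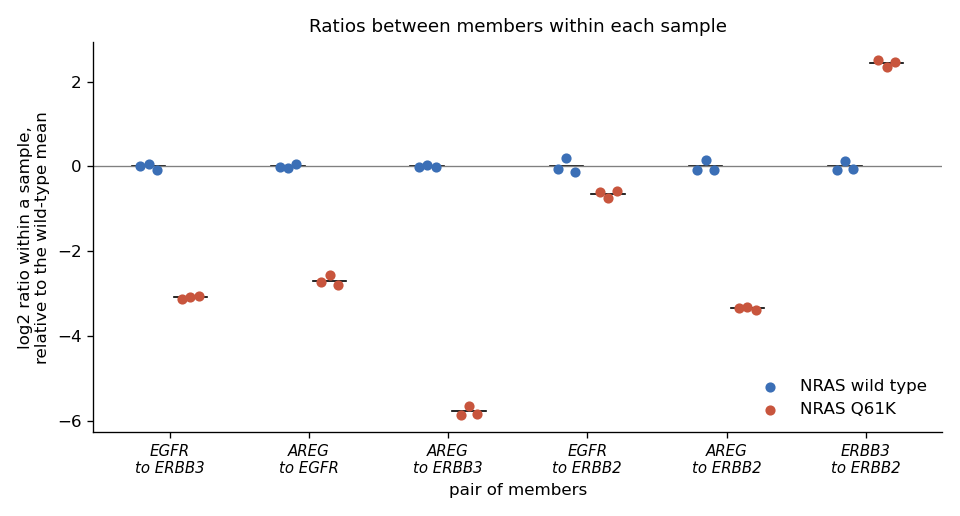
Log2 ratio of 2 members within each sample, shown relative to the mean of the wild-type samples for that pair, with a point per sample and a black line at each mean. The wild-type points lie around 0 by construction, and the mutant points lie below 0 in 5 pairs, down to -5.77 on average for AREG to ERBB3, and above 0 for ERBB3 to ERBB2. Mutant points of pairs with AREG use its measured values, which are under the floor.

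Among all tested genes, AREG and ERBB3 stood towards the opposite ends and EGFR and ERBB2 in between. EGFR had rank 68 of 454 from the lowest and ERBB2 rank 222 from the highest. A fitted change of at least 4-fold was called for 7.93% of tested genes in the higher and 1.98% in the lower direction. The genes with the most similar profiles were found by the Euclidean distance of log2 values centred on each gene's mean over the 6 samples. For EGFR these were CIB1, DLG1 and ERBB2IP at distances of 0.059, 0.061 and 0.075, where the median gene lay at 0.896. ERBB2IP encodes erbin, a protein that binds ERBB2, and had 4710 ± 125 normalized counts without the NRAS mutation and 3827 ± 93.6 with it. For ERBB3 they were ITGA7, TNC and PDGFRB, at 0.177, 0.208 and 0.229 (median gene 3.01). For AREG they were THBS1, ANGPTL4 and HMOX1, at 0.443, 0.456 and 0.770 (median gene 4.09). AREG in mutant cells and ITGA7 and PDGFRB in wild-type cells, at 49.1 and 91.4 counts, were under the floor, so the distances that use them describe measured values and have no exact size. The distances reflect mainly the difference between the lines.

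**Figure D4:**
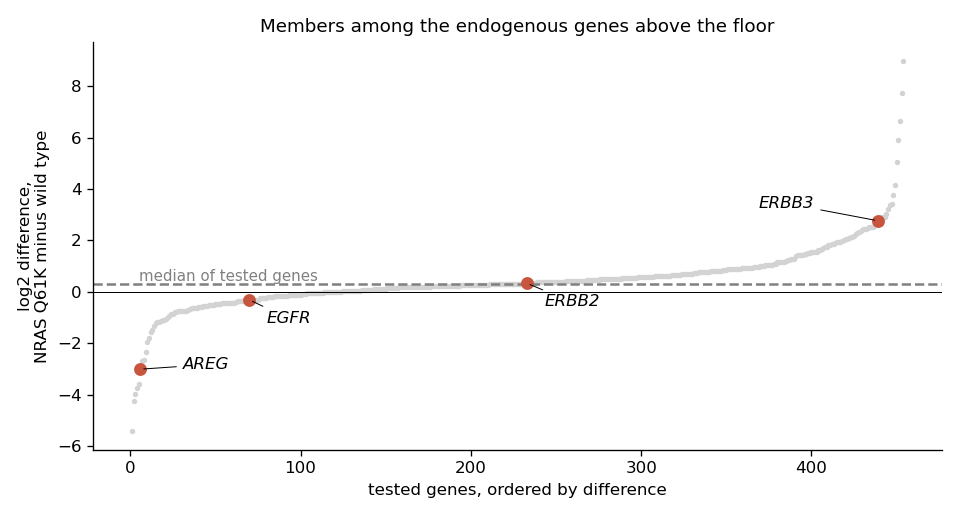
Log2 difference, mutant minus wild type, of the 454 tested genes in order, with the 4 members above the floor in red and a dashed line at the median of 0.32. AREG lies near the low end, ERBB3 near the high end, EGFR below 0 and ERBB2 on the median.

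Genes of ERBB ligand release had a median difference close to that of all tested genes. Of 12 listed, 6 were on the panel and 5 were tested. Of these, 4 were higher, beside 62.1% of all tested genes. ADAM9 did not pass, at 1762 ± 56.9 and 1809 ± 50.6 normalized counts, though it was called lower under the 4 other scalings. The medians were 0.25 for the list and 0.32 for all tested genes. ADAM17, the main protease that releases amphiregulin, went from 1038 ± 44.1 to 1228 ± 7.52 normalized counts, 1.18-fold higher with the mutation (adjusted p = 0.00117, limma). Its relative ADAM15 was 1.19-fold higher. Neither call held under any other scaling, and both genes were called lower after equalising the medians and after quantile normalization. TIMP2, an inhibitor of metalloproteases, was 1.86-fold higher. TIMP1, a related inhibitor, was 1.43-fold higher, a call that ended under 2 of the 4 other scalings. After equalising the medians 1 member was higher and 3 were lower.

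The few signalling partners of the receptors that could be tested were higher in the mutant line. Of 20 listed adaptors and effectors, 7 were on the panel and all 4 that were tested were higher, beside 62.1% of all tested genes, with a median difference of 0.71, which is 0.39 above the median gene. PLCG1, a phospholipase recruited by EGFR, went from 1342 ± 41.2 to 2397 ± 7.75 normalized counts, 1.79-fold higher with the mutation (adjusted p = 1.32e-06, limma). The focal adhesion kinase gene PTK2 was 1.74-fold higher, the transcription factor gene STAT3 1.53-fold and the kinase gene SRC 1.53-fold. All 4 calls held under the 4 other scalings. Of 18 listed negative regulators of ERBB signalling, CBLC, encoding a ubiquitin ligase, was on the panel and was at the minimum in all samples.

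The routes downstream of the receptors were mixed. Of all tested genes, 62.1% were called higher and 20.9% lower as deposited, shares to be read beside the counts here. Of 7 tested genes of the RAS, MEK and ERK relay, 2 were higher and 3 lower as deposited, and 2 and 5 under each other scaling. MAPK3, encoding ERK1, was 2.01-fold higher, at 2193 ± 41.4 against 1092 ± 47.7 counts (adjusted p = 1.59e-06, limma). MAP2K2, encoding MEK2, dropped from 2040 ± 27.7 to 1221 ± 17.2 counts, 1.67-fold lower (adjusted p = 1.26e-06). Of 11 tested genes of the PI3K, AKT and mTOR relay, to which ERBB3 couples, 7 rose and PIK3R2 fell, though its call (adjusted p = 0.0383, limma) ended in 8 of 18 alternatives, with an adjusted p of up to 0.121. The share of this relay called higher was near that of all tested genes, and its median was 0.22 against 0.32 for all genes. The split was 4 and 6 after equalising the medians. PIK3CA, encoding a PI3-kinase catalytic subunit, was 1.54-fold higher, at 770.4 ± 4.36 against 501 ± 16.2 counts (adjusted p = 5.67e-06, limma), and its call held under every other scaling.

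Genes listed as nuclear targets of ERBB signalling split evenly. Of 10 tested, 5 rose and 5 fell, while 62.1% of all tested genes were called higher and 20.9% lower. Their median difference was -0.010 on the deposited scale and -0.33 relative to the median gene, and the split was 3 and 6 after equalising the medians. CXCL8, encoding interleukin 8, was 4.25-fold higher, at 1818 ± 74.0 against 427 ± 19.4 counts (adjusted p = 1.52e-07, limma). ETV4, a transcription factor gene downstream of ERK, was 1.91-fold higher. The lower members were JUN, MYC, CDKN1A, PLAUR and VEGFA, named after their values were seen. JUN, which encodes a subunit of AP-1, was 3.45-fold lower, at 319 ± 26.5 against 1101 ± 34.1.

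Other receptor and ligand genes gave a frame for the members. Of 9 other receptor tyrosine kinases tested, 7 were higher and MET and EPHA2 lower, beside 62.1% and 20.9% of all tested genes. The 9 had a median difference of 1.04. The call of EPHB4 ended under the 4 other scalings, each of which left 6 higher and 2 lower. PDGFRB, FLT1 and KDR were under the floor in wild-type cells and passed the filter through the mutant line, and the median was 0.82 with these 3 at their bounds. PDGFRB, encoding a platelet-derived growth factor receptor, was at least 5.29-fold higher (adjusted p = 2.99e-07, limma), and FGFR1, a fibroblast growth factor receptor, was 3.67-fold higher. These 3 were tested only because they were high in mutant cells, so the count of 7 higher depends in part on the filter. Of the receptors with means above the floor in both lines, FGFR1, DDR2 and FGFR4 were higher under every scaling, as ERBB3 was. FGFR4 was just over the floor in wild-type cells, at 132.2 counts. The fall of EGFR was shared by MET, at -0.73, and EPHA2, at -0.34. Of 7 other growth factor ligands tested, VEGFA, VEGFC, FGF2 and PDGFA were lower and 3 were higher, beside 20.9% and 62.1% of all tested genes. Their median difference was -0.36. None of those 7 ligands fell as far as AREG, the lowest being VEGFA, a vascular growth factor, at 1.95-fold lower. After equalising the medians none of the 7 was called higher and 5 were called lower.

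**Figure D5:**
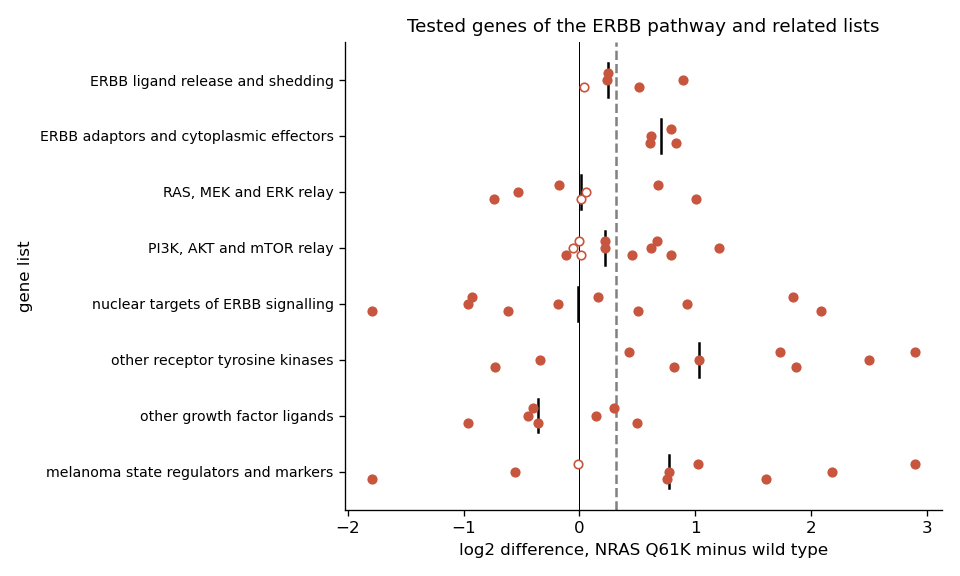
Log2 difference, mutant minus wild type, of the tested genes of 8 lists, with a filled point for a gene called at an adjusted p under 0.05, an open point for one not called, a black line at each list's median and a dashed line at the median of all tested genes, 0.32. The adaptors lie to the right of the dashed line, and the nuclear targets and the other ligands spread to both sides.

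Genes used to describe melanoma states, in which EGFR and ERBB3 often differ, were also read. Of 9 tested regulators and markers, 6 were higher, a share near the 62.1% of all tested genes, and JUN and SNAI2 were lower. WNT5A did not pass, at 1498 ± 43.8 and 1483 ± 36.1 counts, though it was lower under the 4 other scalings. SNAI2 was under the floor in mutant cells, at 105.6 counts, and PDGFRB, 1 of the 6 higher, in wild-type cells. Neither difference therefore has an exact size. WWTR1, encoding the Hippo pathway coactivator TAZ, was 3.06-fold higher and TWIST1, a mesenchymal transcription factor gene, 4.53-fold higher (adjusted p = 5.66e-08 and 2.72e-07, limma). Of 10 melanocyte-lineage markers listed, MCAM and ERBB3 were on the panel and both were called higher, so the lineage could not be checked further. Of 15 epithelial markers on the panel, 4 were above the floor. Among those, 3 were called higher and 0 lower, beside 62.1% and 20.9% of all tested genes. EPCAM and CDH1, which define epithelial cells, were at the minimum in all samples. The values of all 15, most of them under the floor, summed to between 1299 and 1534 counts in the wild-type line and between 2813 and 3026 in the mutant line. CLDN4 gave the largest values. Each gene is read by its own probe, so the sum compares the lines and not the genes. This sum was higher in the line where AREG, an epithelial growth factor, was lower, and its part in the results was not tested. No leukocyte marker of 3 was above the floor, and PTPRC was at the minimum. Of 8 fibroblast and mural markers 4 were above the floor, led by PDGFRB, while COL1A2 was at the minimum. The values of all 8 summed to between 600.3 and 625.8 counts in the wild-type line and between 1586 and 1811 in the mutant line. Of the 4 above the floor, 3 were called higher, beside 62.1% of all tested genes. PDGFRB was under the floor in wild-type cells, at 91.4 counts, and passed the filter through the mutant line. Of 6 endothelial markers 4 were above the floor, KDR through the mutant line alone. Of these 4, 2 were called higher and 1 lower, beside 62.1% and 20.9% of all tested genes. The sum of all 6 went from between 767.8 and 844.9 to between 1029 and 1234 counts. The part of either sum in the results was not tested.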

How the data were processed

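The nCounter panel was read in 6 samples, 3 per line, grouped by their titles. The deposited values are a normalized signal per gene, and background and scaling settings are not given in the sources used here. Per the deposited values, each gene value is a whole count minus a background, times 1 factor per sample (between 0.898 and 0.903 without the NRAS mutation, between 1.11 and 1.16 with it), held at a minimum. All values between the minimum and 400 were whole within 0.03 after this factor and a constant fraction for each sample were removed. The raw background is unknown, so counts are known up to a constant and count models were not used. Control probes were not scaled. Housekeeping genes were those known for this panel.

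Of 784 rows, 740 are endogenous genes, 30 housekeeping genes and 14 control probes. Endogenous genes whose mean exceeded the floor were fitted with limma 3.58.1 in R 4.3.3 on log2(value + 1), 2-sided, with Benjamini-Hochberg adjustment over all 454. Fold changes understate low genes. The fit was tested on simulated data. Alternatives were 4 scalings, pseudocounts of 10 and 50, other floors, other eBayes settings, the replicate number as a block, each sample left out, and an extra background subtraction chosen after seeing the data. Named genes were the members, the 2 members of each list with the smallest adjusted p, all members of lists with 5 or fewer tested, and the 3 genes nearest to each member. Other genes were named after their values were seen. The members and lists were chosen with earlier results of these data known. Positions and sequences are from RefSeq, GRCh38.p14, where 5 of the 6 members had a promoter entry. Results for some genes covered by the naming rule are not reported here.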

Additional observations from a re-analysis of the deposited data

How the results depend on the processing

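ERBB3, EGFR and AREG kept their direction and their call under all 18 alternatives, with log2 differences of 2.28 to 3.04 for ERBB3, -0.77 to -0.29 for EGFR and -3.66 to -2.52 for AREG. ERBB2 kept its call in 13 of 17. Its difference was 0.0040 with the sample factors removed, 0.017 with positive control scaling, -0.12 after equalising the medians and -0.16 after quantile normalization (adjusted p = 0.97, 0.911, 0.207 and 0.236, limma). The same scalings moved the median difference of all tested genes from 0.32 to between -0.13 and 0.0047. With the floor set at 2 times its value ERBB2 was not tested. Genes called higher numbered 282 as deposited and 175, 158, 150 and 153 under the same 4 scalings in that order. Genes called lower numbered 95, and 160 with the factors removed, 206 after equalising the medians and 205 after quantile normalization. Under positive control scaling 139 were lower, within 1.5 times of the main count. With positive control scaling the ligand release list had 2 called members in place of 4 and the other growth factor ligands 4 in place of 7.

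Leaving out 1 sample at a time gave 2.73 to 2.79 for ERBB3, -0.32 to -0.30 for EGFR, -3.07 to -2.95 for AREG and 0.24 to 0.38 for ERBB2, all still called, and 258 to 284 higher and 91 to 97 lower genes.

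A larger pseudocount moved the ratios of members. The EGFR to ERBB3 change was -3.00 with a pseudocount of 10 and -2.70 with 50, and the AREG to ERBB3 change -5.59 and -4.93. With a pseudocount of 50 the AREG to EGFR change was -2.23, the AREG to ERBB2 change -2.78 and the ERBB3 to ERBB2 change 2.15. A pseudocount compresses the members near the floor. The designed ratios with EREG were not run, since it was at the minimum.

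Deviations from the line means correlated at r = 0.216, 0.053 and 0.066 between samples with the same replicate number. Between samples with different numbers r lay between -0.171 and 0.091. With 3 samples per line these values cannot decide whether the numbers pair samples. With the replicate block 299 genes were higher and 93 lower, the 4 members kept their calls, and the mean changes of the ratios were as reported (exact sign-flip p = 0.25, the smallest 3 pairs allow). The precision is limited by the 3 samples of each line and, for ERBB2, for ERBB3 in wild-type cells and for AREG in mutant cells, by the negative control probes, which reached 143.8 counts.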
